A study of Mus musculus with 4 samples.

Results

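The genes described here code for the cargo of eosinophil granules and for the receptor through which eosinophils sense interleukin 5. The rule named 7 genes (Epx, Prg2, Prg3, Ear1, Ear2, Ear3 and Il5ra), chosen by their lower processed signal with JAK2V617F on these same arrays, out of 22563 genes named on the array. A probe carrying the gene's name was found for 6 of the 7, each with 1 probe on 1 spot; Ear3 had no probe under that name and was not analysed here. The choice of members used the contrasts of JAK2V617F, so the values of those contrasts are a description and carry no test.

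The material was RNA of LSK cells (lineage-negative, c-Kit+, Sca-1+ bone marrow cells), the fraction that contains hematopoietic stem cells and multipotent progenitors. Recipient mice had been lethally irradiated and given E14.5 fetal liver cells (embryonic day), on a background given as C57B6, of 1 of 4 genotypes: wild type (WT), TET2 knock-down (TET2KD), a JAK2V617F transgene, or both changes, called double mutant in the labels. Each genotype had 1 single-colour Agilent array and 5 mice, and the labels do not say whether the 5 mice were pooled. The promoter of the transgene, the kind of knock-down allele and the lineage antibodies are likewise not given in the sources used here. TET2KD marrow was taken at 10 weeks from the transplant, double mutant marrow at 13 weeks and that of the remaining genotypes at 16 weeks, so time and genotype cannot be told apart except between WT and JAK2V617F.

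Eosinophils arise from granulocyte progenitors under GATA1, C/EBP factors and interleukin 5, and they begin to make their granule proteins while still immature. The granule core is built of major basic protein (Prg2) and its homologue (Prg3), and the matrix around it holds a peroxidase (Epx) and small ribonucleases of the RNase A superfamily, which in the mouse form the large Ear gene family. Il5ra is the ligand-binding chain of the interleukin 5 receptor, which signals with the common beta chain Csf2rb through JAK2 and STAT5. The V617F change makes the JAK2 kinase active without ligand and is common in myeloproliferative neoplasms, and TET2, an enzyme that oxidises 5-methylcytosine, is often mutated in the same diseases.

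The probes are printed because those of the Ear genes share runs of bases with each other and those of Epx, Prg2 and Prg3 do not, which bears on how each signal can be read. The coordinates are those in the files, on mouse build mm9, with the strand of the probe. Capitals mark runs of at least 12 bases that a probe shares with the probe of another Ear gene.
Epx, chr11:87678288-87678347, minus strand: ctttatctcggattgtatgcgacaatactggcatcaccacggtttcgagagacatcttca
Prg2, chr2:84822799-84822858, plus strand: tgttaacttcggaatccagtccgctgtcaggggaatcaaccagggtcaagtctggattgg
Prg3, chr2:84831668-84833177, plus strand: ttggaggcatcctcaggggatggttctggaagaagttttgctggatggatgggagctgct
Ear1, chr14:44396709-44396768, minus strand: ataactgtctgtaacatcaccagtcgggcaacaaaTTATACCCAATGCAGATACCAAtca
Ear7, chr14:52473974-52474033, plus strand: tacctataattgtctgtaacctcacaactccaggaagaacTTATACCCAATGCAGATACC
Ear10, chr14:44500615-44500674, minus strand: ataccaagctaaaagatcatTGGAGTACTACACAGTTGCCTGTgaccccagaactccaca
Ear12, chr14:44680899-44680958, plus strand: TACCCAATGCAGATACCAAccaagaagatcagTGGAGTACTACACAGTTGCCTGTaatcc

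The Prg3 probe has 60 bases but covers 1510 bases of the genome, so it crosses at least 1 exon junction. The Ear1 probe shares a run of 20 bases with the Ear7 probe and 19 with the Ear12 probe. The Ear2 probe lies at chr14:44681119-44681178 and shares a run of 23 bases with the Ear6 probe. Its accessions in the files include transcripts of both Ear1 and Ear2, so its signal cannot be given to Ear2 alone. The Il5ra probe lies at chr6:106660378-106660437 and shares no window of 20 bases with another probe of the array, nor do those of Epx, Prg2 and Prg3. Since the transcripts of the Ear family are near-identical in places and were not used here, each Ear signal is uncertain as a measure of 1 gene.

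Levels are given as processed signal divided by the 75th percentile of that array's own signals, which makes the 4 arrays comparable; the level of 1 probe cannot be set against that of another. The 75th percentile itself was 120 signal units in TET2KD, 128 in WT, 130 in JAK2V617F and 144 in the double mutant. Between 49.4% and 54.7% of spots were well above background and 0 were saturated. Of the 3 Tet2 probes, those well above background on every array read 27.3% and 56.3% of WT in TET2KD and 60.3% and 61.6% in the double mutant, and the remaining probe was above background in the double mutant alone. The Jak2 probe read 95.8% of WT in JAK2V617F, and the sources used here do not show if it detects the transgene's RNA. All 6 members with a probe were well above background on all 4 arrays. With 1 array per genotype no difference has a replicate check and none carries a p-value.

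Prg2, major basic protein, was read by a probe that was among the brighter ones of every array. It stood at 169 times the 75th percentile in WT, 143 in TET2KD, 49.0 in the double mutant and 22.6 in JAK2V617F. In WT only 401 of 55681 probes were brighter, which put it at the 99.3rd percentile, and in JAK2V617F it was at the 96.3rd. WT and TET2KD were high and both arrays with JAK2V617F were low.

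Prg3, the major basic protein homologue, read 13.9 in WT, 9.78 in TET2KD, 3.47 in the double mutant and 2.94 in JAK2V617F. Its range over the 4 arrays was 4.73-fold, against 7.45-fold for Prg2. The 2 arrays with JAK2V617F were low and close to each other, the single mutant at 21.1% and the double mutant at 24.9% of WT.

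Epx, eosinophil peroxidase, read 25.4 in WT, 22.0 in TET2KD, 3.003 in the double mutant and 1.41 in JAK2V617F. The TET2KD array was near WT, at 86.5%, while JAK2V617F was at 5.54% and the double mutant at 11.8%. Its range was 18.0-fold.

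Ear1, an eosinophil-associated ribonuclease, read 49.7 in WT, 21.1 in TET2KD, 7.71 in the double mutant and 2.80 in JAK2V617F. Ear2, of the same family, read 18.8, 8.02, 2.28 and 0.827 in the same order of arrays. Both signals sat at nearly the same share of WT on each array. Ear1 was at 42.3% and Ear2 at 42.8% in TET2KD, at 5.62% and 4.41% in JAK2V617F, and at 15.5% and 12.2% in the double mutant. Ear2 had the widest range of the 6 members, 22.7-fold, and its percentile among all probes went from 95.9 in WT to 72.8 in JAK2V617F.

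Il5ra, the receptor chain, went against the label and the rule. It read 0.878 in WT, 0.842 in TET2KD, 0.960 in the double mutant and 0.999 in JAK2V617F, a range of 1.19-fold. Spots of 1 probe repeated within an array differed with an SD of 0.073 to 0.091 on the log2 scale for probes brighter than the 75th percentile, which gives an SD of 0.117 for a difference between 2 arrays, counting spot error only. Over the 5 comparisons made below, the Il5ra differences ran from -0.06 to 0.19 on that scale, within 2 such SDs; its highest and lowest arrays, JAK2V617F and TET2KD, were 0.25 apart, slightly more. Il5ra lay just below that brightness on every array, and over all 432 repeated probes, dim ones included, the SD within an array was 0.353 to 0.387. Il5ra codes for a surface receptor and not for granule cargo, so the name granule genes covers 5 of the 6 genes with a probe.

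**Figure D1:**
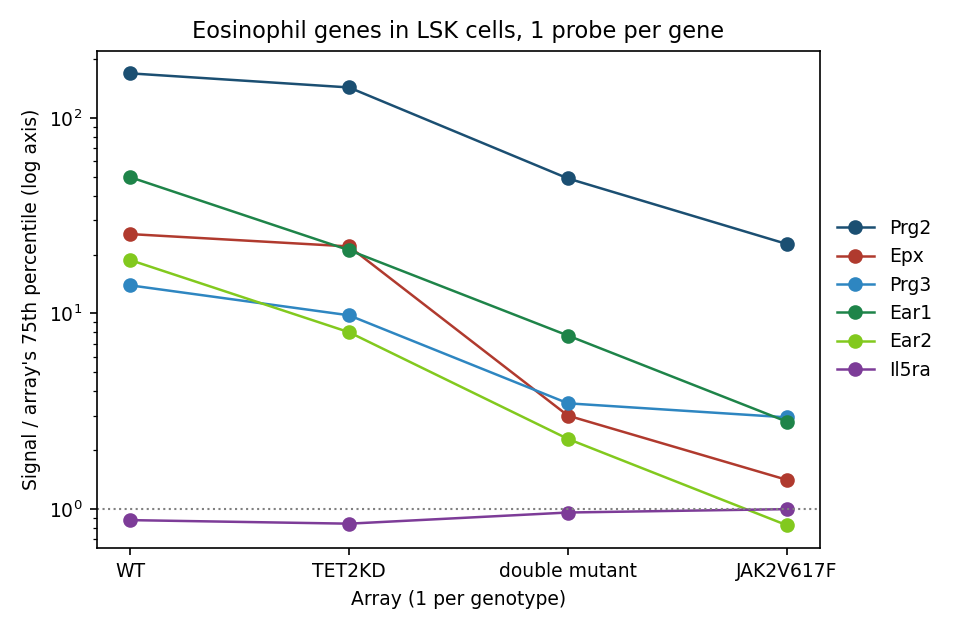
Signal divided by the array's 75th percentile (log axis) for the 6 member genes on the 4 arrays, 1 array per genotype, with no error bar because there are no replicates; the lines only join the values of 1 gene. The 5 granule genes are highest in WT and lowest in JAK2V617F, while Il5ra stays between 0.842 and 0.999.

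JAK2V617F compared with WT is a contrast the choice of members drew on, and both arrays were taken at 16 weeks. On the log2 scale the difference was -4.50 for Ear2, -4.17 for Epx, -4.15 for Ear1, -2.90 for Prg2 and -2.24 for Prg3, and 0.19 for Il5ra. The median of the 6 was -3.53, beside -0.01 over the 14892 genes compared. At least 2-fold lower signal was found for 5 of the 6 members; over all genes 15.7% were at least 2-fold lower and 15.5% at least 2-fold higher, and nothing is read from this count because the rule used it. The smallest difference among the 5, that of Prg3, ranked 553rd from the lowest of all genes, and the largest, that of Ear2, ranked 20th.

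The double mutant compared with TET2KD asks how the transgene goes with these genes where TET2 is knocked down, and it shares no array with the comparison above. The double mutant read 13.6% of TET2KD for Epx, 28.5% for Ear2, 34.3% for Prg2, 35.5% for Prg3 and 36.6% for Ear1, and 114% for Il5ra. The same 5 genes were thus at least 2-fold lower, where 15.5% of all 14562 genes were lower by that much and 15.8% higher. Their log2 differences lay between -2.87 for Epx and -1.45 for Ear1, with a median of -1.52 over the 6 members and 0.02 over all genes. Epx stood apart from the other 4, at 7.33-fold lower against 2.73- to 3.51-fold. Time after transplantation also differed here, at 13 weeks against 10.

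Genes at least 2-fold lower in both of these comparisons, which have no array in common, numbered 504 of the 13373 compared in both, or 3.77%, and the 5 granule genes were among them. A difference of at least 3-fold in both was seen for 181 genes, Epx and Ear2 included. As the rule may have drawn on either contrast, this is a description.

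**Figure D2:**
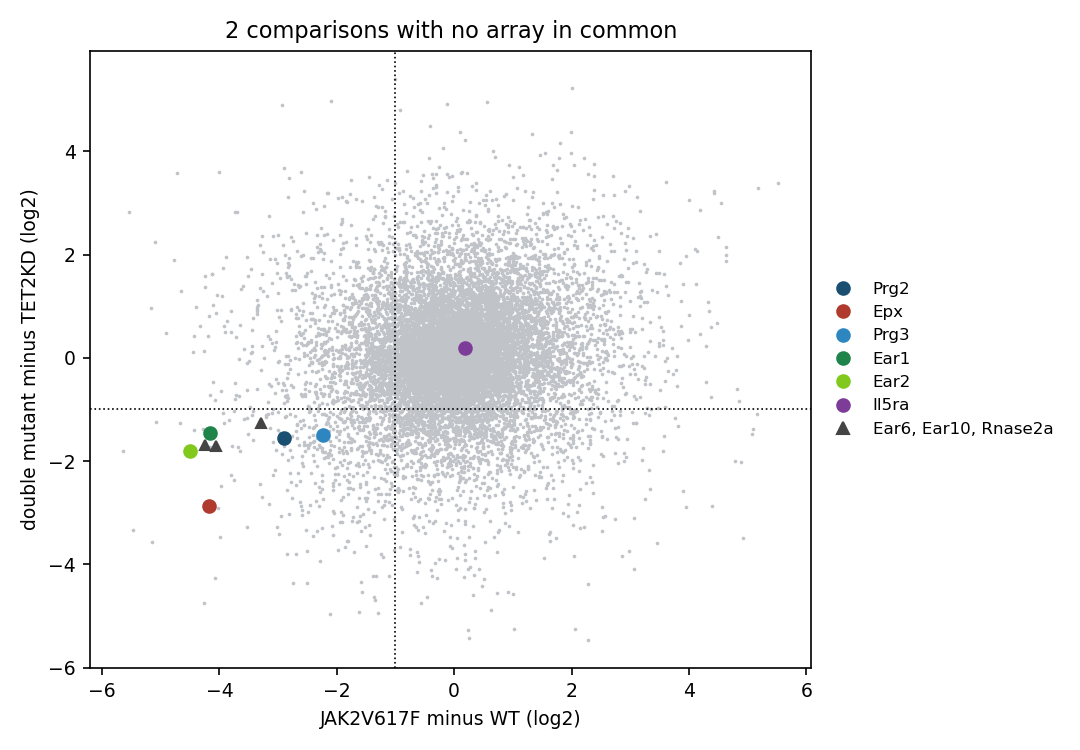
Log2 difference of JAK2V617F minus WT (horizontal) and of double mutant minus TET2KD (vertical); grey points are the 13373 genes compared in both, circles the member genes, triangles Ear6, Ear10 and Rnase2a, and dotted lines a 2-fold lower signal. The 5 granule genes and the 3 related ribonucleases lie below and to the left of the dotted lines, and Il5ra lies near the origin.

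Against WT, the double mutant was 8.47-fold lower for Epx, 8.21-fold for Ear2, 6.45-fold for Ear1, 4.01-fold for Prg3 and 3.45-fold for Prg2. Il5ra differed by 0.13 on the log2 scale. The median of the members was -2.35, beside -0.01 over 14814 genes, of which 16.6% were at least 2-fold lower and 15.3% higher. This comparison shares the WT array with the first and the double mutant array with the second.

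TET2KD compared with WT is a contrast without JAK2V617F, but both of its arrays may have entered the choice of members. All 6 members read below WT, from -0.06 for Il5ra to -1.24 for Ear1, with a median of -0.37 beside -0.05 over 14311 genes. Only the ribonuclease probes passed 2-fold, Ear1 at 2.36-fold and Ear2 at 2.34-fold lower. That is 2 of 6 members, whose probes may read each other's transcripts, where 17.5% of all genes were at least 2-fold lower and 15.9% higher. Prg3 was at 70.3% of WT, and Epx and Prg2 were at 86.5% and 84.7%, which are differences of -0.21 and -0.24 log2, within or near 2 SDs of spot error.

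The double mutant compared with JAK2V617F gave higher signals for most members. Ear2 was 2.76-fold higher, Ear1 2.75-fold, Prg2 2.16-fold and Epx 2.13-fold, while Prg3 differed by 0.24 log2 and Il5ra by -0.06. At least 2-fold higher signal was thus found for 4 of 6 members, where 12.3% of the 14977 genes were higher by that much and 12.7% lower. With normexp background correction Epx was at 0.91 log2, under 2-fold, and 3.20% of all genes were higher and 4.13% lower. The median of the members was 1.10, beside -0.02 over all genes. The JAK2V617F array is one on which the members were picked for low signal, so this direction is not independent of the choice.

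**Figure D3:**
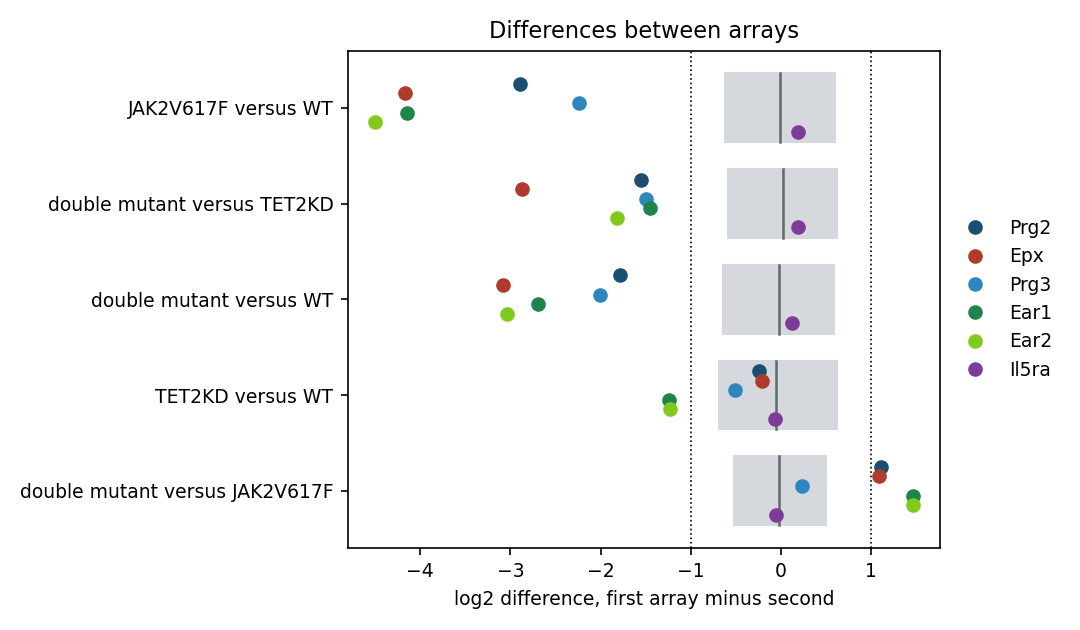
Log2 difference of each member gene (points) in the 5 comparisons of 2 arrays; the grey box spans the lower to upper quartile of all genes compared, its line is their median, and dotted lines mark a 2-fold difference. The granule genes lie left of the box in the 3 comparisons of an array with JAK2V617F against one without, and right of it, apart from Prg3, in double mutant versus JAK2V617F.

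The order of the 4 arrays was WT, TET2KD, double mutant, JAK2V617F from high to low for all 5 granule genes. Over all genes 1177 of 16079, or 7.32%, had this order, and 731 of these were also at least 2-fold lower in JAK2V617F than in WT. The rule fixed the end positions in part. Neighbours in the order that lay closest were WT and TET2KD for Epx and Prg2, and the double mutant and JAK2V617F for Prg3, each by 0.24 log2 or less. Il5ra had another order, JAK2V617F, double mutant, WT, TET2KD, with all steps within 2 SDs of spot error.

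The difference linked to TET2KD had the opposite sign without and with JAK2V617F for the 5 granule genes. The gap between both differences (double mutant minus JAK2V617F, less TET2KD minus WT, log2) was 2.70 for Ear1, 2.69 for Ear2, 1.35 for Prg2, 1.30 for Epx and 0.75 for Prg3, and 0.00 for Il5ra. Among 16079 genes these values lay at the 96.5th percentile for both Ear1 and Ear2, the 86.0th for Prg2, the 85.3rd for Epx and the 74.5th for Prg3. A low JAK2V617F array raises this value by itself, and the members were chosen for that.

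Related ribonucleases give a further reading of the Ear family, with probes that partly share letters with those printed above. The Ear12 probe, at chr14:44680899-44680958, lies beside the Ear2 probe, at chr14:44681119-44681178. The Ear7 probe, at chr14:52473974-52474033, lies beside the Ear6 probe, at chr14:52474253-52474312. Each of these pairs may read 1 locus, so the probes may not be separate readings. Signals in WT, TET2KD, the double mutant and JAK2V617F were 30.0, 14.7, 4.54 and 1.58 times the 75th percentile for Ear10, and 34.2, 16.3, 5.03 and 2.04 for Rnase2a. Ear12 read 18.1, 9.85, 2.37 and 0.991, Ear6 read 7.80, 4.05, 1.68 and 0.793, and Ear7 read 3.66, 3.07, 0.818 and 0.423. All 5 probes were highest in WT and lowest in JAK2V617F, at 5.26% to 11.6% of WT, and the double mutant was at 24.0% to 41.4% of TET2KD. The Rnase2a probe shares no run of over 9 bases with any of the others and gave the same order of arrays. Ear4 was above background in WT alone, and Rnase2b on no array.

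The sequences before the start sites of Ear1 and Ear2 are nearly the same. Both are printed, from RefSeq on build GRCm38.p6, 250 bases up to the start. A link to their like shares of WT was not tested, and the Ear2 probe may also read Ear1 transcripts. Capitals mark a match to TTGCNNAA, letters of C/EBP sites.
Ear1, chr14:43819640-43819889, minus strand: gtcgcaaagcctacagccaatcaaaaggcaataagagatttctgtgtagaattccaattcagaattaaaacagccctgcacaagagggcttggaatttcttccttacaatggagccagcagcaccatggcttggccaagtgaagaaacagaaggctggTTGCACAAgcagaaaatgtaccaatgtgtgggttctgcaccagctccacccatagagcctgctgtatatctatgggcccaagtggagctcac
Ear2, chr14:44102404-44102653, plus strand: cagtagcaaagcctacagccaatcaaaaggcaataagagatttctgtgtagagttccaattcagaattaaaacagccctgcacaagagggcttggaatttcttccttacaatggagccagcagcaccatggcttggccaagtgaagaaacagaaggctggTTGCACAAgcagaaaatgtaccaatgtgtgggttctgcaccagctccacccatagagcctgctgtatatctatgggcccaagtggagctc

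The aligned promoters of Ear1 and Ear2 were 97.6% identical, those of Ear1 and Ear10 91.7%, of Ear1 and Ear6 78.2%, and of Ear1 and Rnase2a 61.6%. Unrelated pairs, such as Ear1 and Epx, reached 50.5% in this gapped alignment. Promoters were found in the table for 5 members: Ear1, Ear2, Epx, Il5ra and Prg3. In windows of 300 bases (250 before and 50 after the start) both strands were searched. TTGCNNAA was found 92 bases before the start in Ear1, 90 in Ear2, 94 in Ear10 and 217 in Rnase2a, and in 10.8% of all 32851 promoters. It was absent from the Ear6 window, and Ear6 had the same order of arrays. A link between these letters and the signals was not tested. AGATAA, letters of GATA sites, was found in Il5ra alone of the 5 members, 74 bases before the start, and in 11.2% of all promoters. GAGGAA, letters of PU.1 sites, was found in Il5ra, 41 bases after the start, in Rnase2a, 193 before it, and in 28.3% of all. TTCNNNGAA, letters of STAT sites, was found in none of the 5 and in 8.30% of all. The Epx, Prg3 and Ear6 windows held none of the 4 sets of letters.

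Neighbouring genes on the chromosome showed a mixture of patterns. Prg2 and Prg3 are neighbours in the RefSeq order, and the next gene on the Prg2 side, Slc43a3, read 6.36 in WT, 8.52 in TET2KD, 13.6 in the double mutant and 18.4 in JAK2V617F, opposite to both. On the Prg3 side, Ssrp1 and P2rx3 did not follow Prg3. Their log2 differences were 0.35 and 0.24 in JAK2V617F against WT, and 0.14 and -0.01 in the double mutant against TET2KD. Tnks1bp1, farther from Prg3 than Ssrp1, differed in the same direction as Prg3. Tnks1bp1 read 0.421 in WT and 0.304 in TET2KD and was not well above background on either array with JAK2V617F. Epx has Lpo and Mpo, peroxidases of the same family, on one side. Mpo, the neutrophil and monocyte granule peroxidase, read 14.7 in WT, 29.4 in TET2KD, 58.5 in the double mutant and 51.1 in JAK2V617F. Its order over the arrays was thus nearly the reverse of that of Epx. Ear1, Ear10 and Ear2 are neighbours of each other and had 1 order of arrays, as Prg2 and Prg3 did.

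A list of 49 other eosinophil pathway genes was counted beside the members. In JAK2V617F against WT 9 were at least 2-fold lower and 9 higher of 39 compared, and in the double mutant against TET2KD 9 were lower and 8 higher of 41. The counts were 8 lower and 10 higher of 40 for the double mutant against WT, the same for TET2KD against WT, and 7 lower and 10 higher of 40 for the double mutant against JAK2V617F. As shares of the genes compared these stand beside the all-gene shares given above, such as 15.7% lower and 15.5% higher in JAK2V617F against WT. In JAK2V617F against WT the medians of its sublists were -0.52 for receptors and signalling genes, 0.57 for transcription factors, -4.06 for the 3 other Ear genes compared and -0.06 for other ribonucleases.

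Among receptors, Il3ra, the interleukin 3 receptor alpha chain, read 6.17 in WT, 1.70 in TET2KD, 1.83 in the double mutant and 1.13 in JAK2V617F, so WT stood alone. Csf2rb, the beta chain that Il5ra uses, read 2.54, 2.38, 3.77 and 5.58 in the same order as the mean of 2 probes, higher with JAK2V617F. One probe read 5.90, 3.06, 6.80 and 12.1, and the other 1.10, 1.85, 2.09 and 2.58. These probes disagreed on the direction between WT and TET2KD. Ccr3, the eotaxin receptor of mature eosinophils, was not well above background on any array. Siglecf, a surface lectin of eosinophils, had 2 probes that disagreed. One read 0.513, 0.214, 0.615 and 1.18, and the other read 3.56 in WT, 0.526 in JAK2V617F and 1.06 in the double mutant and was not well above background in TET2KD.

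Among transcription factors, Gata1, needed for the eosinophil lineage, read 4.54 in WT, 0.176 in TET2KD, 1.70 in the double mutant and 1.93 in JAK2V617F. It was lowest in TET2KD, where the 5 granule genes ranged from 42.3% to 86.5% of WT. Gata2 read 6.16, 6.38, 3.99 and 9.42 in the same order. Cebpe, which drives granule maturation, read 0.414, 0.708, 0.744 and 0.535. Cebpa was 6.55-fold, Id1 5.66-fold and Irf8, which favours monocytes, 3.77-fold higher in JAK2V617F than in WT. The double mutant was 9.65-fold higher than TET2KD for Gata1 and 4.30-fold for Irf8, and 4.19-fold lower for Bach2. The Gata1 reading of 0.176 in TET2KD lay close to 0.145, the lowest signal called well above background on that array. The size of the Gata1 fold is therefore uncertain.

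Markers of other cells were summed for each array, as multiples of the 75th percentile, so each sum follows the brightest probes of its list. Of the granule gene sum, Prg2 alone gave 169 in WT and 22.6 in JAK2V617F. The 5 granule genes together stood at 277 in WT, 204 in TET2KD, 65.4 in the double mutant and 30.6 in JAK2V617F. Neutrophil markers summed to 65.4, 92.4, 64.4 and 21.1 in the same order. Of these, S100a9 read 38.5, 52.9, 31.9 and 12.6, and Lcn2 read 15.0, 8.77, 11.7 and 1.67. Of that list 6 of 9 genes compared were at least 2-fold lower in JAK2V617F than in WT and 0 higher. Over all genes 15.7% were lower and 15.5% higher by that much. Of the lower ones, Ltf, Mmp8, Retnlg and Cxcr2 read only 0.343, 0.498, 0.591 and 0.336 in WT. They were not well above background in JAK2V617F, so only Lcn2 and S100a9 were measured on both arrays. In the double mutant against TET2KD 1 of 8 was lower and 1 higher, where 15.5% of all genes were lower and 15.8% higher. Markers of granulocyte and monocyte progenitors summed to 37.5, 79.9, 191 and 171. Of these, 7 of 9 were at least 2-fold higher in JAK2V617F than in WT and 0 lower, beside the all-gene shares of 15.5% and 15.7%. F13a1, among the 7, was not well above background in WT. In the double mutant against TET2KD 6 of 9 were higher and 0 lower, where 15.8% of all genes were higher and 15.5% lower. Ly86, among the 6, was not well above background in TET2KD. By these sums the granule genes were low on both arrays with JAK2V617F, the neutrophil markers on 1 of them, and the progenitor markers on neither.

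Mast cell and basophil markers, some of which share granule proteins with eosinophils, summed to 3.32, 4.50, 4.99 and 4.53, with 4 to 7 of 12 genes above background on an array. Of this list 2 of 8 genes compared were at least 2-fold lower and 3 higher in JAK2V617F than in WT, and 2 of 6 lower and 1 higher in the double mutant than in TET2KD. Over all genes 15.7% were lower and 15.5% higher in the first comparison, and 15.5% lower and 15.8% higher in the second. Cpa3, a mast cell protease, was among the lower ones in both, at 0.830 in WT and 0.919 in TET2KD and not well above background on either array with JAK2V617F. Mcpt8, of the same list, was higher in both, at 0.324 in JAK2V617F and 0.759 in the double mutant. It was not well above background in WT or TET2KD. Gzmb and Il1rl1 were also higher in JAK2V617F than in WT, where neither was well above background. Markers of the sorted gate summed to 74.5, 60.3, 40.6 and 56.1, with 8 of 9 genes above background on every array. Macrophage markers ranged from 6.41 to 11.99, B cell markers from 1.09 to 3.24 and erythroid markers from 1.07 to 23.6, the last highest in TET2KD. The part of these shifts in the granule gene values was not tested. As the RNA came from sorted cells in bulk, fewer cells of a type and less RNA per cell cannot be told apart.

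**Figure D4:**
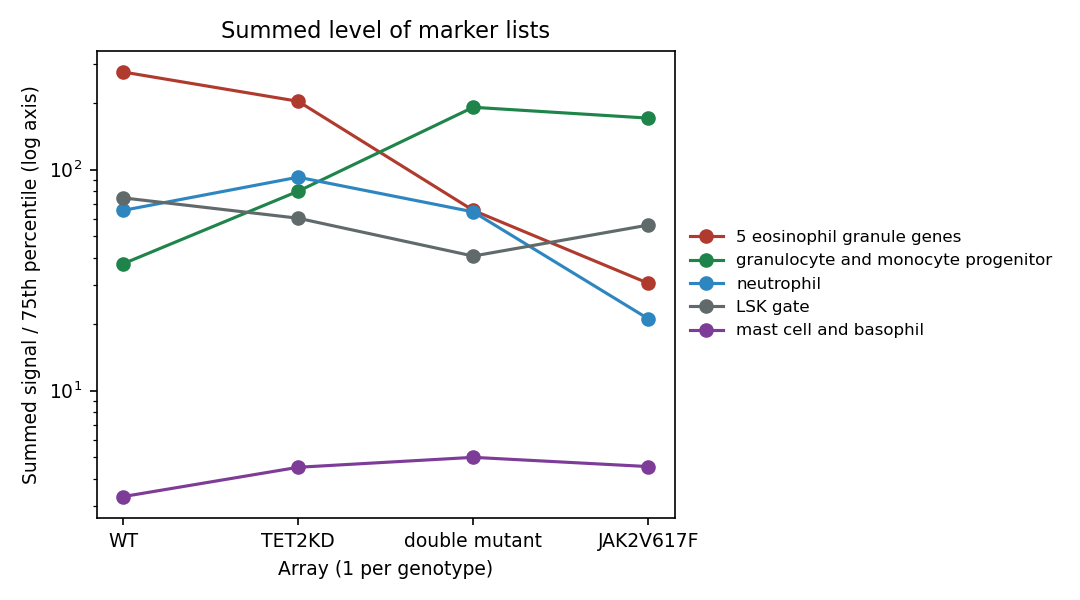
Summed signal of marker lists divided by the array's 75th percentile (log axis), 1 array per genotype, with no error bar because there are no replicates; the lines only join the values of 1 list. The 5 granule genes go from 277 in WT to 30.6 in JAK2V617F, while markers of granulocyte and monocyte progenitors go from 37.5 to 171. Each sum follows the brightest probes of its list.

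Genes with the pattern most like the members were found by distance: the 4 log2 values of each of 14583 genes were centred on their mean and compared with the median centred profile of the 6 members. The nearest were Mcph1 (distance 0.163 log2), Gimap8 (0.246), Rhobtb2 (0.302), Ear6 (0.335), Mettl2 (0.467) and Rnase2a (0.470). Mcph1 and Mettl2 were each not well above background on 1 array. Gimap8 read 6.36 in WT, 3.52 in TET2KD, 1.06 in the double mutant and 0.494 in JAK2V617F. The members themselves lay at 0.452 for Prg2, 0.539 for Ear1, 0.777 for Ear2, 0.943 for Prg3, 1.05 for Epx and 2.89 for Il5ra, so the first 4 of the genes outside the list were nearer to the profile than any member was. With 4 arrays such a ranking is a description only.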

How the data were processed

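Amplified, Cy3-labelled cDNA of LSK cells was hybridised to 1-colour Agilent mouse arrays, 1 per genotype. The deposited intensity values (processed, mean and background signals per spot) came from Agilent Feature Extraction 10.7.3.1, per the file headers, which also name build mm9. The deposited series matrix holds log2 values: on each array they differed from the logged processed signal by 1 constant, to within 0.001 for every probe with a single spot; its column medians were -2.64, -2.63, -2.60 and -2.60 for WT, TET2KD, JAK2V617F and the double mutant.

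The main values were log2 of the processed signal scaled to the 75th percentile of the 59305 spots on each array that are not controls. Outlier spots (162 to 199 per array) were dropped and probes of a gene averaged. Names came from the member names in the files and otherwise from a RefSeq table, by accession (28026 probes), symbol (3418) or synonym (295); 23942 probes had no gene. A gene was compared when a probe was well above background on at least 1 of the 2 arrays, with a dim side set to the higher of its own signal and the lowest one called well above background on the array. A difference was counted at 2-fold. Pathway genes named are up to 4 each way per comparison by size, well above background in both arrays, plus Gata1, Gata2, Cebpe, Ccr3 and Siglecf; the text gives part of them. Csf2rb, Slc43a3, P2rx3, Ssrp1, Tnks1bp1, Mpo, Cpa3, Mcpt8, Gzmb and Il1rl1 were also named. So were Ltf, Mmp8, Retnlg, Cxcr2, F13a1, Ly86 and the Ear, Tet2 and Jak2 probes. All of these were added as partner, neighbours, markers, family or targets, some after their values were seen. Members and lists were chosen with earlier results of these data known.

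Alternatives were normexp background correction (offset 50), quantile scaling, division by the median of detected probes, a filter asking for detection on both arrays, no dim-probe filter, the brightest probe, the series matrix, a 3-fold threshold and an additive limma fit. Steps were tested on simulated arrays. Tools were R 4.3.3 with limma 3.58.1, and Python 3.11.15 with pandas 2.3.3, numpy 2.4.6, matplotlib 3.10.9 and Biopython 1.88.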

Additional observations from a re-analysis of the deposited data

Results flagged for a closer look

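For 5 genes the TET2KD array lay below WT while the double mutant lay above JAK2V617F, so the difference linked to TET2KD had opposite signs in the absence and presence of JAK2V617F. The gap between both differences on the log2 scale was 1.30 for Epx, 1.35 for Prg2, 0.75 for Prg3, 2.70 for Ear1 and 2.69 for Ear2. The gap was not tested, since each genotype has 1 array, and the WT and JAK2V617F arrays in it are among those on which the genes were picked. For Epx and Prg2 the difference of TET2KD from WT, -0.21 and -0.24, was close to spot error. For Prg3 the difference of the double mutant from JAK2V617F, 0.24, was likewise close to it.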

How the results depend on the processing

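Over 7 alternatives of background correction, scaling and probe choice, 194 of 210 values of single members moved by less than 1 SD of spot error, 16 moved by more and 0 changed sign. Detection on both arrays, no dim-probe filter and the brightest probe could not change a member's value. Each member has 1 probe, well above background on every array. Values under these settings are among the 194 by construction, so that count does not measure robustness. Of the 16, all but Ear1 in TET2KD against WT under quantile scaling (-1.11, main -1.24) came with normexp background correction. With normexp the median of the members was -3.33 (main -3.53) in JAK2V617F against WT, -1.39 (main -1.52) in the double mutant against TET2KD and -2.20 (main -2.35) in the double mutant against WT, and Epx in the double mutant against JAK2V617F was 0.91, under 2-fold. At a 3-fold threshold 2 members were lower in the double mutant against TET2KD (5 at 2-fold), 0 in TET2KD against WT (2 at 2-fold), and 0 were higher in the double mutant against JAK2V617F (4 at 2-fold). The additive limma fit called 0 members for TET2KD (0 of 16079 genes, 723 at an unadjusted p under 0.05). Its spread for a member mixes that member's gap with the spread over all genes. The choice of members enlarges the gap of the granule genes, and there are no replicates, so the fit says nothing about the members. Over all genes normexp left 910 lower and 886 higher in JAK2V617F against WT (main 2342 and 2309) and 807 and 891 in the double mutant against TET2KD (main 2263 and 2297), and 618 and 480 in the double mutant against JAK2V617F (main 1908 and 1838). It left 978 and 806 in the double mutant against WT (main 2454 and 2273) and 1082 and 796 in TET2KD against WT (main 2502 and 2277). The filter on dim probes left the members' values as they were, as all are above background. No paired analysis was possible because each genotype has 1 array and no number links arrays. The number of arrays limits the precision, and sharing of bases among Ear probes limits what each of them reads.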
